A study of Mus musculus with 14 samples.

Results

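The genes described here are the ATP-binding cassette (ABC) transporters and the organic anion, organic cation and bile acid carriers of the SLCO, SLC22A and SLC10A families. They were chosen by gene symbol: Abc followed by a letter from a to g and a number, or Slco, Slc22a or Slc10a followed by a number. The rule found 69 of the 12393 genes measured on the arrays, 36 ABC genes and 33 carriers, through 115 probe sets. For the 27 genes with more than 1 probe set, the probe set with the highest mean over the 14 arrays was used.

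The cells were mouse hepatoblasts, the fetal liver progenitors that can become hepatocytes or bile duct cells. The donors were wild-type mouse embryos of day 14, and plating at clonal density had immortalised the cells. All carried a doxycycline-inducible construct: an empty vector, IDH1 or IDH2 in wild-type form, IDH1 R132C, or IDH2 R172K. Of each, 2 cultures were grown on plates coated with collagen. The remaining groups, also with 2 cultures each, were vector cells and IDH1 R132C cells on uncoated plates, which the study used for up to 5 days to let hepatoblasts differentiate towards hepatocytes. The labels name doxycycline, 25 ng/mL, for the IDH1 work and do not say whether IDH2 cultures or each vector culture received it. R132C and R172K are amino acid changes in isocitrate dehydrogenases found in bile duct cancer, and the series asks whether they disturb hepatocyte differentiation. Neither the exact time on uncoated plates nor whether a group was 1 clone is stated in the labels.

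ABC proteins use ATP to move lipids, bile salts, conjugates and drugs across membranes, and most of them export. In hepatocytes a set of ABC exporters in the canalicular membrane makes bile, while SLC10A1, SLCO and SLC22A proteins in the opposite membrane take up bile acids, organic anions and organic cations from blood. Mature liver uses these genes strongly and fetal liver uses many of them weakly, under the control of HNF4A and of nuclear receptors that sense bile acids, sterols and drugs. The ABCE and ABCF proteins share the ATP-binding domains but act on ribosomes and transport nothing.

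Array medians ran from 134.9 to 148.3, with R172K culture 1 lowest, and replicate arrays correlated at r = 0.994 to 0.998. Levels are log2 probe set intensity, which says nothing of one gene against another, since probe sets bind with different strength. A group mean at or under 4.80, the highest lower quartile of any array, is called near background. Of 11 measured markers of hepatoblasts and hepatic epithelium, 10 were above background in all 7 groups and Prox1 was near it in all 7. Among 7 markers of mature hepatocytes, 5 were near background in all 7 groups (Cps1, Cyp2e1, G6pc, Pck1 and Tat). In bulk RNA, fewer cells that use a gene and less of its RNA per cell cannot be told apart.

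Of the 69 transporters, 38 were above background in all 7 groups, 20 were near it in all 7, and 11 were near it in some groups. The share near background throughout was 29% of the transporters against 19.9% of all genes. It was 19.4% of the ABC genes (7 of 36) and 39.4% of the carriers (13 of 33). All 8 ABCB genes, the ABCE gene and all 3 ABCF genes were above background in every group, while 5 of 11 SLCO genes and 2 of 4 SLC10A genes were near background in every group.

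**Figure D1:**
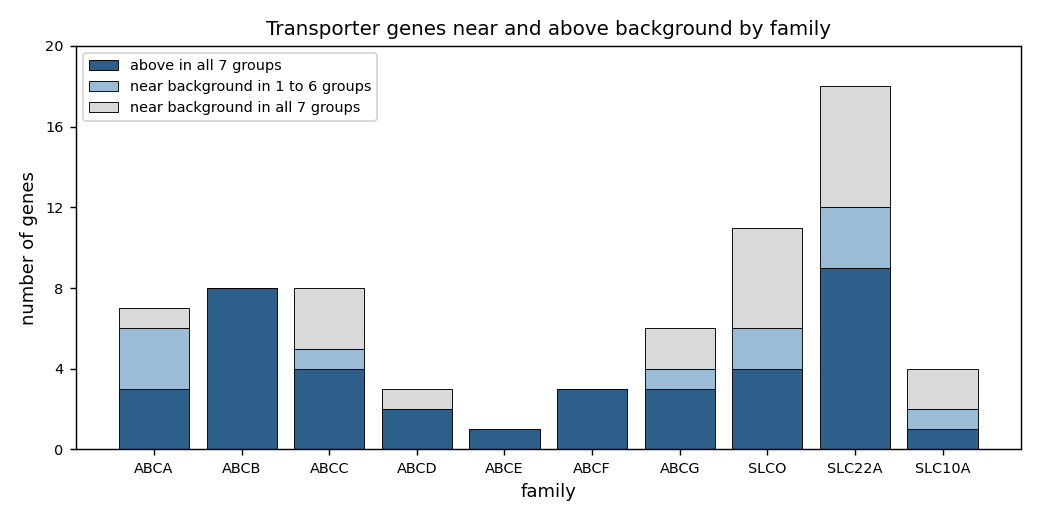
Number of transporter genes (vertical axis) in each of 10 families (horizontal axis), split by whether the mean log2 intensity of a group was above or near background. All 8 ABCB genes were above background throughout, and 13 of the 33 SLCO, SLC22A and SLC10A genes were near it in all 7 groups.

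The genes near background throughout included the textbook uptake systems of the hepatocyte. Slc10a1, the sodium-dependent bile acid carrier, lay between 3.98 and 4.62 on the 14 arrays. Slco1b2, the main organic anion carrier of mouse liver, lay between 3.66 and 4.29. Slc22a7, an organic anion carrier of liver, Slc22a8, better known from kidney, and Slc10a2, the bile acid carrier of ileum and bile ducts, were near background as well. So were Abcc6, Abcc8, Abcc9, Abcd2, Abcg1, Abcg3, Abca8b, Slco1a6, Slco1c1, Slco6b1, Slco6c1, Slc22a19, Slc22a22, Slc22a27 and Slc22a29. A level near background gives no order and only an upper limit, and none of the 5 Slco1b2 probe sets or the 2 Slc10a1 probe sets passed the test in a plate comparison.

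Other carriers were well above background in every group. Slco2a1, the prostaglandin transporter, lay between 11.52 and 12.28 on all arrays. Slco3a1, an organic anion carrier found in many tissues, lay between 9.72 and 10.76, and Slc22a5, the carnitine transporter, between 8.05 and 8.77. Across the 69 genes the median range of the 7 group means was 0.44 on the log2 scale, against 0.38 over all genes. Of the transporters, Abcg5 (2.72) and Slc22a18 (2.03) had the widest ranges.

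**Figure D2:**
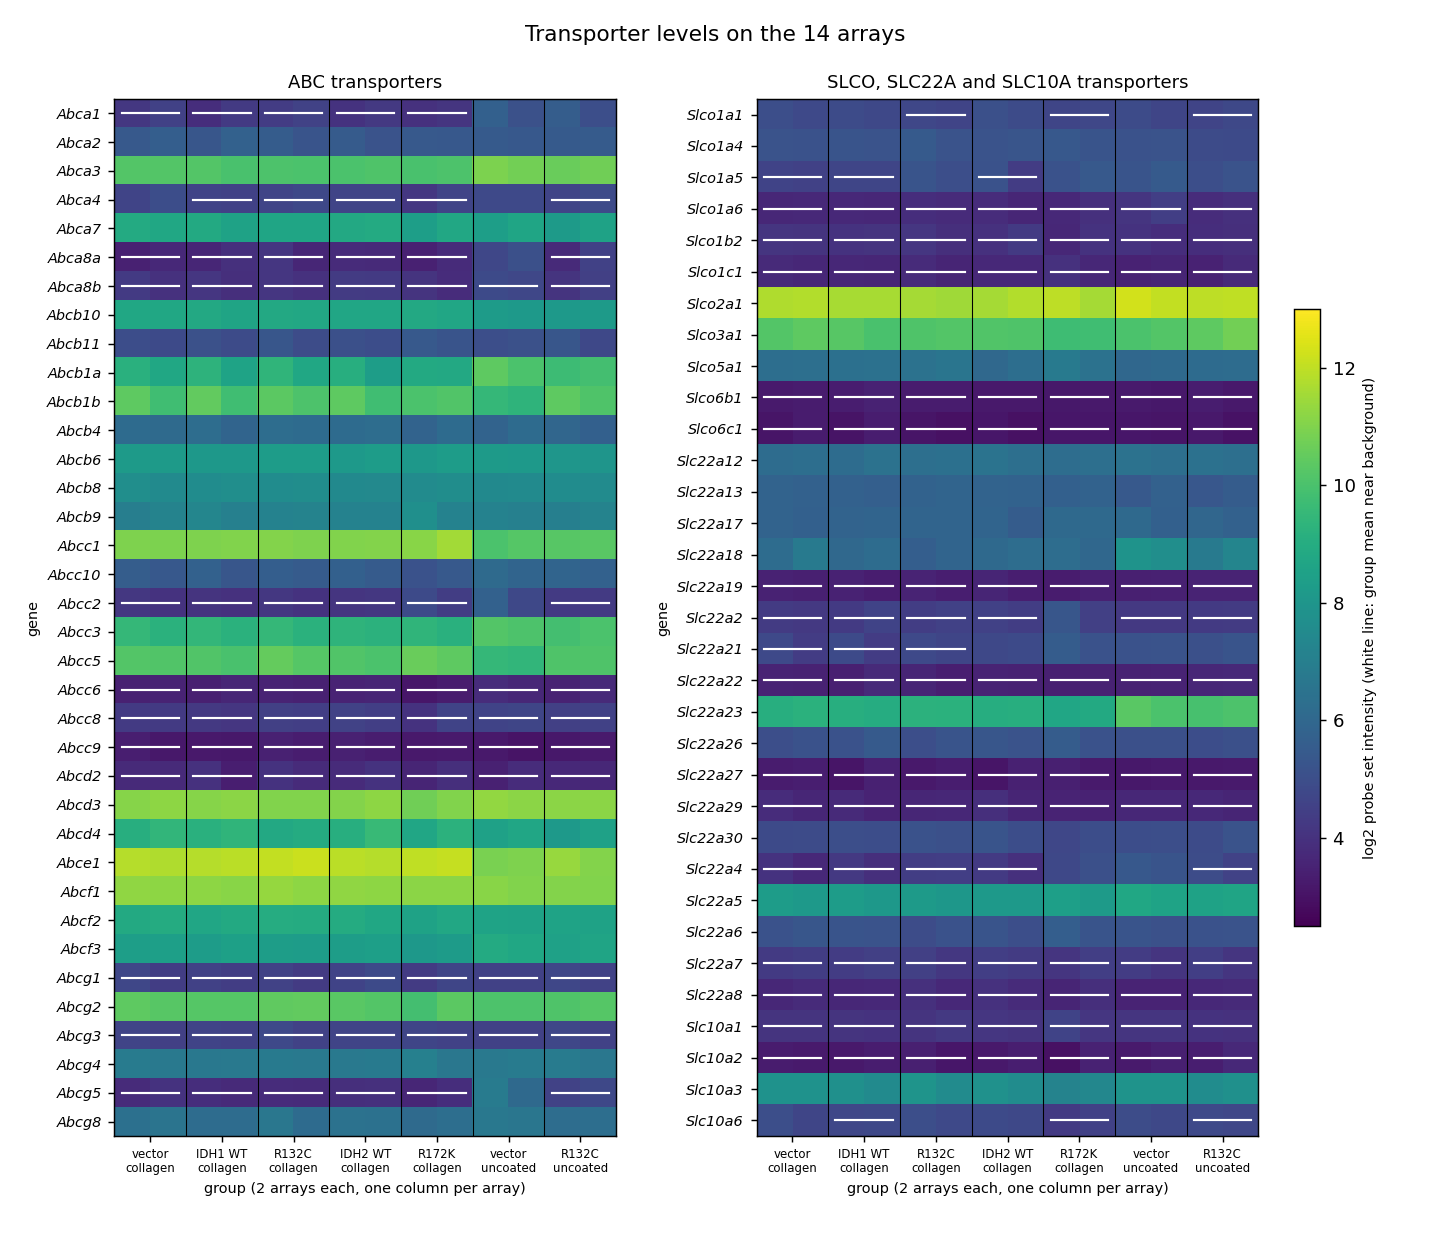
Log2 probe set intensity (colour) of the 36 ABC genes and 33 carriers (rows) on the 14 arrays (columns, 2 per group), with a white line where the group mean was near background. Rows may be read across but not against each other. Abcg5 was near background in 6 groups and at 6.47 in vector cells on uncoated plates.

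The first comparison asked what uncoated plates did to vector cells, with 2 uncoated against 2 collagen cultures. By limma's moderated test, 24 of the 69 transporters passed an adjusted p of 0.05, with Benjamini-Hochberg adjustment over all 12393 genes: 18 rose and 6 fell. That is 34.8% of the transporters against 29.3% of all genes, with 15.1% of all genes rising and 14.2% falling. The median change was -0.009 over the transporters and -0.02 over all genes. Of the 24, 8 changed at least 2-fold, and all 8 rose (6.11% of all genes passed and changed at least 2-fold). ABC genes split into 10 that rose and 6 that fell, while the 8 carriers that passed all rose. All uncoated arrays of a gene that passed lay on one side of both its collagen arrays. This and later statements on overlap describe the arrays that the test used, and add no separate support to a call.

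Abcg5 and Abcg8 encode the partners of one sterol exporter that moves cholesterol and plant sterols into bile and back into the gut lumen. Abcg5 was 3.81 and 4.02 in vector cells on collagen and 6.87 and 6.07 on uncoated plates. The 8 other collagen arrays lay between 3.61 and 3.97, so only the uncoated vector cultures had a group mean above background. The change was 2.56 ± 0.20 (SE), or 5.89-fold, with a limma adjusted p of 2.57e-06, and the collagen level, near background, leaves the fold uncertain. Abcg8 was 6.37 and 6.55 on collagen and 6.69 and 6.64 on uncoated plates, 0.21 ± 0.15 higher, which did not pass (limma adjusted p = 0.361).

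The 2 genes are neighbours transcribed away from each other. In the RefSeq promoter table (GRCm38.p6), 64 windows of 300 bases matched 55 of the 69 genes, and the start sites of Abcg5 and Abcg8 lay 110 bases apart on opposite strands. The 109 bases between them serve as the immediate upstream sequence of both genes, and are shown because only 1 of the 2 passed. They lie at chr17:84683012-84683120 and are written on the plus strand, with Abcg8 starting to the right and Abcg5 to the left:
Abcg5-Abcg8: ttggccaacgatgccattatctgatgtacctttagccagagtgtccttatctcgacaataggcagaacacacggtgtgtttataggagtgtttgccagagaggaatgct
None of the 7 motifs searched was found in these letters on either strand, so nothing is in capitals. The motifs were CAAAGTCCA (HNF4A), AGGTCA (nuclear receptor half-site), GTTAAT (HNF1 half-site), TTGCNNAA (CEBP), TGACNNNGC (antioxidant element), GGGCGG (SP1) and TCACNCCA (SREBP).

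Other exporters of the canalicular membrane gave mixed results in vector cells. Abcc2 exports conjugated bilirubin and glutathione conjugates into bile. It was 4.20 and 4.03 on collagen and 5.76 and 4.78 on uncoated plates, a rise of 1.15 ± 0.24 (2.22-fold, limma adjusted p = 0.00272), and the uncoated cultures were far apart. Without the higher of them, vector uncoated culture 1, the rise was 0.66 (adjusted p = 0.0231). Abcb11, the bile salt export pump, was 4.99 and 4.85 on collagen and 5.03 and 5.10 on uncoated plates (change 0.14 ± 0.18). Abcb4, which moves phosphatidylcholine into bile, was 6.18 and 6.13 on collagen and 5.84 and 6.18 on uncoated plates (change -0.14 ± 0.16). Neither passed in any of the 7 comparisons. Abcg2, an exporter of drugs and porphyrins, was 10.39 and 10.28 on collagen and 10.05 and 10.08 on uncoated plates. Its change of -0.27 ± 0.13 did not pass (limma adjusted p = 0.131), but passed with array weights (adjusted p = 0.0436) and without R172K culture 1 or 2 (0.0154 and 0.0156).

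Abcb1a and Abcb1b encode the 2 mouse P-glycoproteins, which export a wide range of drugs. Abcb1a was 9.17 and 8.76 on collagen and 10.39 and 10.03 on uncoated plates, a rise of 1.24 ± 0.28 (2.37-fold, limma adjusted p = 0.00412). Its second probe set gave 1.28, and without vector uncoated culture 1 the rise was 1.07 with an adjusted p of 0.0506. Abcb1b was 10.38 and 9.80 on collagen and 9.49 and 9.34 on uncoated plates, with a change of -0.67 ± 0.24 that did not pass (limma adjusted p = 0.0549). This turned under 8 of 23 alternatives: it passed with the filter at the 30th percentile (adjusted p = 0.0475), with only the arrays compared (0.0428), with the replicate block (0.00477), and without vector collagen culture 2 (-0.96, 0.0198) or any culture of wild-type IDH1 or IDH2 (0.03 to 0.0401). Uncoated values thus lay above the collagen values for Abcb1a and below them for Abcb1b, and the difference between the 2 genes' changes was not tested. They are neighbouring genes with very similar sequences, and binding of one's RNA to the other's probes could not be assessed from summarised values. Abcb4 follows directly after Abcb1b.

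The 250 bases before the start sites of 4 genes are shown, 3 that rose on uncoated plates in vector cells (Abcc2, Slc22a4 and Abcb1a) and Abcb1b, which did not pass. They are written 5′ to 3′ on each gene's own strand, in GRCm38.p6, with matches to the 7 motifs in capitals. Abcc2 (chr19:43782058-43782307, plus strand) held an antioxidant element and a nuclear receptor half-site, and Slc22a4 (chr11:54028105-54028354, minus strand) held 2 SP1 matches. Abcb1b (chr5:8797897-8798146, plus strand) held a CEBP match and an SP1 match, and Abcb1a (chr5:8566841-8567090, plus strand) held none.
Abcc2: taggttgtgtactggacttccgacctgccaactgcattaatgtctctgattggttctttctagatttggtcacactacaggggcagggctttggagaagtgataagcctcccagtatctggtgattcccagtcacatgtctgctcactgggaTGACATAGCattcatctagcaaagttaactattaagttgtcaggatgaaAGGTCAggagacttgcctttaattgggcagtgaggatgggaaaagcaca
Slc22a4: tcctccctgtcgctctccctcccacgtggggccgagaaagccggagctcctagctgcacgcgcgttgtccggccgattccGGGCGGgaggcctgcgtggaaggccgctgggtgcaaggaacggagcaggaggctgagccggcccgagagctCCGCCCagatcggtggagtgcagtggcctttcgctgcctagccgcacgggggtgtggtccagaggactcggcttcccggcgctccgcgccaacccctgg
Abcb1a: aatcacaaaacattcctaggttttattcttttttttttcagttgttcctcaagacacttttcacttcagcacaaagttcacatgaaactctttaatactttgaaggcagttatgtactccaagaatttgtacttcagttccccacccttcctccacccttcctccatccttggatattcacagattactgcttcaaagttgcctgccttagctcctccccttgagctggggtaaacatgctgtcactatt
Abcb1b: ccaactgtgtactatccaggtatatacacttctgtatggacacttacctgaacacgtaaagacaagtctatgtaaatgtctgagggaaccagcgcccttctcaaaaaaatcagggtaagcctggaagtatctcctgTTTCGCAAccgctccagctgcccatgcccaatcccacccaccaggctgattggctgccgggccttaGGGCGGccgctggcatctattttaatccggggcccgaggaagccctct
Over the 32851 windows of all genes, the half-site stood in 16.3%, the antioxidant element in 12.4%, the CEBP letters in 10.8% and the SP1 letters in 35.7%. The corresponding shares of the 64 transporter windows were 17.2%, 10.9%, 14.1% and 37.5%. HNF4A letters stood in 1.56% of transporter windows, in that of Abcd3 alone, and in 0.475% of all windows. HNF1 letters stood in 7.81% and 7.10%, and SREBP letters in 6.25% and 4.36%. A match describes the letters and shows no binding.

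Exporters of the basolateral membrane and other ABCC genes moved in both directions. Abcc3, which returns conjugates and bile acids to blood, was 9.48 and 9.20 on collagen and 10.17 and 10.05 on uncoated plates, a rise of 0.77 ± 0.14 (limma adjusted p = 0.00103). Abcc1, an exporter of glutathione conjugates and leukotrienes, fell by 0.81 (SE 0.12), but its second probe set, of lower intensity, gave -0.04. Abcc5, an exporter of cyclic nucleotides, was 10.17 and 10.14 on collagen and 9.49 and 9.42 on uncoated plates. It fell by 0.70 (SE 0.11, limma adjusted p = 0.000391), as did 2 more of its 7 probe sets (-0.77 and -0.71), while the other 4 ran from -0.41 to 0.27 and did not pass. Abcc10 rose by 0.49.

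Among the ABCA lipid transporters 4 of 7 rose, against 15.1% of all genes, and the calls of Abca1 and Abca8b were lost without single arrays. Abca1, which loads cholesterol onto apolipoprotein A1, was 4.21 and 4.52 on collagen and 5.74 and 5.10 on uncoated plates (rise of 1.05 ± 0.23, limma adjusted p = 0.00345). Its other two probe sets lay near background and changed by 0.18 and 0.21. Abca8a was 3.45 and 3.71 on collagen and 4.74 and 5.08 on uncoated plates (rise of 1.33 ± 0.24, limma adjusted p = 0.00114), and its neighbour Abca8b rose by 0.66 while staying near background. Abca3, the lamellar body lipid transporter best known from lung, rose by 0.65. Abcg1, another cholesterol exporter, was 4.75 and 4.40 on collagen and 4.53 and 4.54 on uncoated plates, near background in both.

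ABC proteins of ribosomes and organelles also changed. Abce1, which splits ribosomes after termination, was 11.84 and 11.73 on collagen and 10.87 and 10.96 on uncoated plates. It fell by 0.87 (SE 0.10, limma adjusted p = 5.05e-05), and its other probe set fell by 0.97. Abcf2 fell by 0.34, Abcb10 of the inner mitochondrial membrane by 0.56 and Abcd4, which works in lysosomal cobalamin export, by 0.64, while Abcf3 rose by 0.43. The peroxisomal fatty acid importer Abcd3 did not pass (0.08 ± 0.10).

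The carriers that rose at least 2-fold were all SLC22A genes. Slc22a4, a carrier of ergothioneine, was 4.02 and 3.71 on collagen and 5.41 and 5.21 on uncoated plates, a rise of 1.44 ± 0.17 (2.71-fold, limma adjusted p = 6.02e-05). Slc22a21 and Slc22a5, carnitine carriers that adjoin it in that order on chromosome 11, rose by 0.58 and 0.44. Slc22a18, an imprinted gene for an organic cation carrier, was 6.21 and 6.79 on collagen and 7.89 and 7.70 on uncoated plates (rise of 1.29 ± 0.20, 2.45-fold, limma adjusted p = 0.000342). Slc22a23, whose substrates are not settled, was 9.07 and 9.22 on collagen and 10.31 and 10.03 on uncoated plates (rise of 1.02 ± 0.11, limma adjusted p = 2.67e-05). None of these collagen and uncoated values overlapped. Slco1a5, Slco1a6 and Slco2a1 rose by 0.77, 0.59 and 0.42. Slc22a18's other probe set rose by 0.70, Slco1a5's other probe set gave -0.14, and all 3 of Slco2a1 rose.

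**Figure D3:**
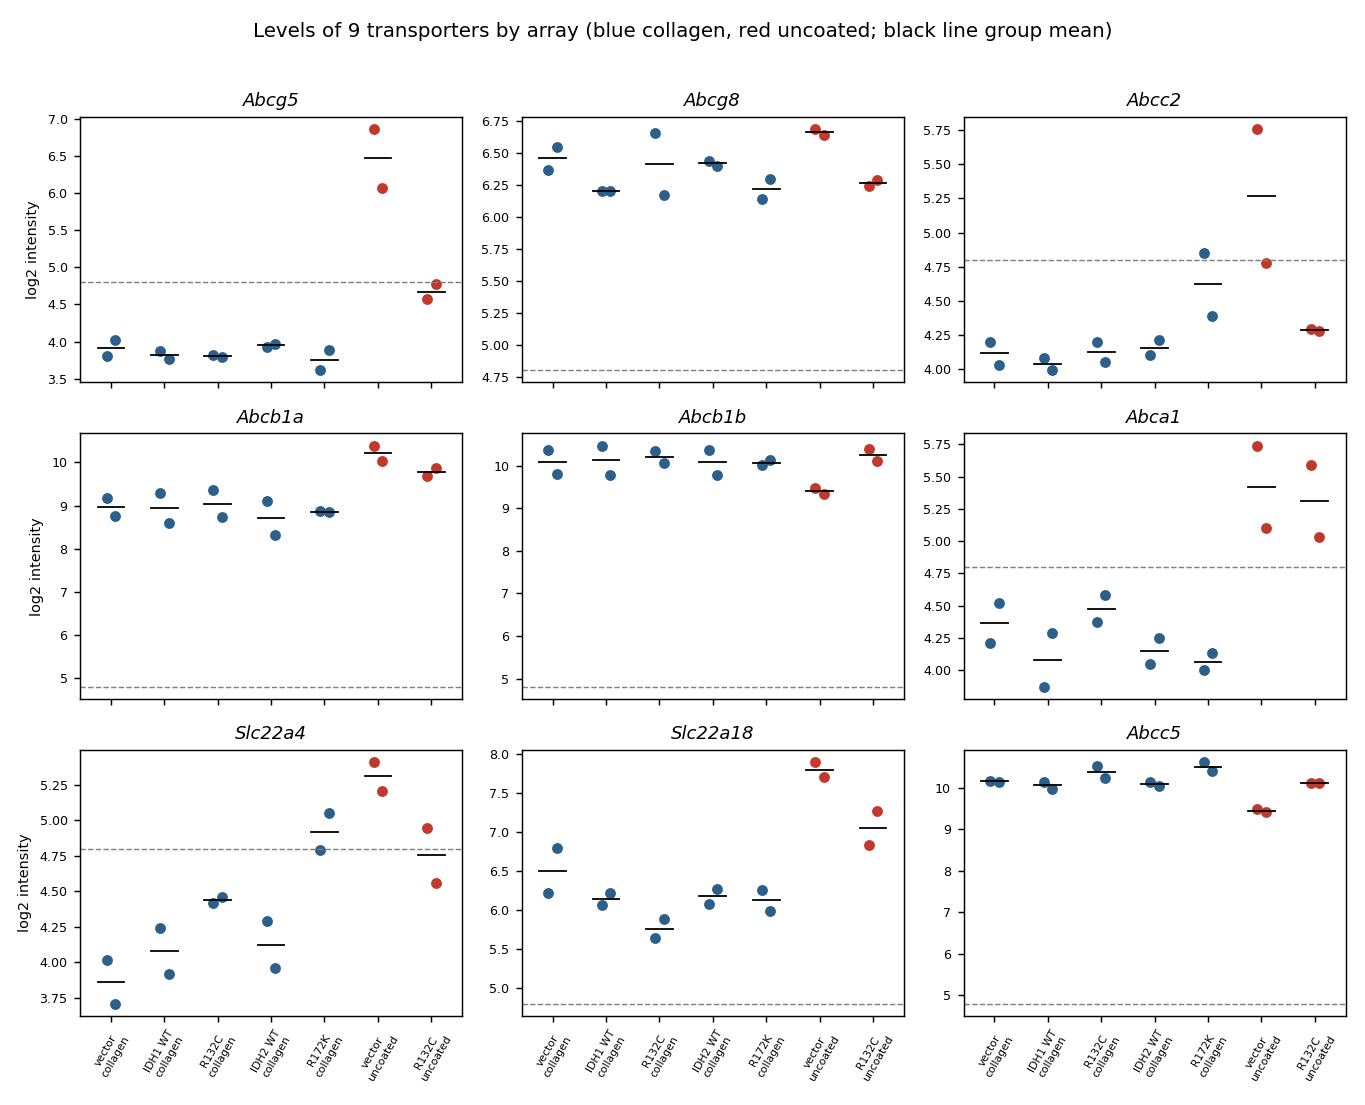
Log2 probe set intensity (vertical axis, a separate scale in each panel) of 9 transporters in the 7 groups (horizontal axis); each point is an array, black lines are group means and the dashed line is the near-background limit of 4.80. Abcg5 stands apart in vector cells on uncoated plates, while Abcg8 does not pass in any comparison.

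Of the 24 calls in vector cells, 12 held whichever array was left out, among them Abcg5, Slc22a4, Slc22a18, Abca8a, Abcc2, Slc22a23, Abcc3 and Abcc5. Without vector uncoated culture 1, 14 of 24 held and Abca1, Abca8b, Abcb1a, Abcc10, Abcd4, Abcf2, Abcf3, Slc22a21, Slc22a5 and Slco2a1 did not (adjusted p = 0.0506 to 0.254), while the share of all genes called was 18.7%. Without vector collagen culture 2, 7 were lost and Slc22a21 gave 0.36 (adjusted p = 0.275). With vector uncoated culture 2 left out Slco1a5 and Slco1a6 were among 5 that were lost (adjusted p = 0.0513 to 0.157). For dim genes the size depends on the scale: on log2(value + 32) the rises were 1.37 for Abcg5, 0.62 for Slc22a4, 0.54 for Abcc2, 0.51 for Abca1 and 0.50 for Abca8a.

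In R132C cells the same plate comparison called 15 of the 69 transporters, 9 that rose and 6 that fell. That is 21.7% of the transporters against 25.9% of all genes, of which 13.6% rose and 12.3% fell. Slc22a18 was 5.64 and 5.88 on collagen and 6.83 and 7.27 on uncoated plates (rise of 1.29 ± 0.20, limma adjusted p = 0.000552), and it was the only one past 2-fold. The other Slc22a18 probe set gave 0.42 and did not pass. Abcg5 was 3.82 and 3.79 on collagen and 4.57 and 4.77 on uncoated plates, a rise of 0.87 ± 0.20 (limma adjusted p = 0.00664) that stayed near background. The Abcg5 rise missed the threshold without R132C uncoated culture 2 (0.77, adjusted p = 0.0665) and on log2(value + 32) (0.32, adjusted p = 0.0829). Abcg8 was 6.66 and 6.17 on collagen and 6.24 and 6.29 on uncoated plates and did not pass.

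Abca1 was 4.37 and 4.58 on collagen and 5.59 and 5.03 on uncoated plates in R132C cells (rise of 0.84 ± 0.23). Its call was lost without R132C uncoated culture 1 (change of 0.55) or R132C collagen culture 1 (0.73). Of the 3 Abca1 probe sets 1 rose and the lowest gave -0.16, and their mean did not pass (0.21, limma adjusted p = 0.13). Slc22a23 was 9.23 and 9.19 on collagen and 9.95 and 10.06 on uncoated plates (rise of 0.79 ± 0.11), and Abcc3 was 9.51 and 9.19 on collagen and 9.85 and 10.02 on uncoated plates (rise of 0.58 ± 0.14). Abca3, Slc22a5, Slco3a1 and Slco2a1 rose by 0.62, 0.48, 0.45 and 0.41. Those that fell were Abce1 by 0.87, Abcc1 by 0.70, Abcb10 by 0.62, Slco1a4 by 0.47, Abcf2 by 0.44 and Abcf1 by 0.25.

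Several other transporters did not pass in R132C cells. Abcc2 was 4.20 and 4.05 on collagen and 4.29 and 4.28 on uncoated plates (0.16 ± 0.24), near background throughout. Slc22a4 was 4.42 and 4.46 on collagen and 4.95 and 4.56 on uncoated plates (0.31 ± 0.17), and Abca8a was 4.18 and 3.63 against 3.75 and 4.52 (0.23 ± 0.24). Only the Abca8a values overlapped. Abcb1a was 9.35 and 8.74 on collagen and 9.69 and 9.86 on uncoated plates (0.73 ± 0.28, limma adjusted p = 0.0698), and Abcb1b was 10.34 and 10.07 against 10.40 and 10.11 (0.05 ± 0.24). Abcb11 was 5.30 and 4.96 against 5.32 and 4.78, Abcb4 was 6.26 and 6.18 against 5.96 and 5.73, and Abcg2 was 10.45 and 10.46 against 10.11 and 10.24. Abcg2 passed with array weights (-0.28, adjusted p = 0.0234), with only the arrays compared (0.0329) and without R172K culture 1 or 2 (0.0146 and 0.0148). Abcb1a passed with only the arrays compared (0.73, adjusted p = 0.0176), the replicate block (0.00967) and without wild-type IDH2 culture 1 or 2 (0.0408 and 0.0406). The collagen and uncoated values of Abcb11 and Abcb1b overlapped, and those of Abcb4, Abcg2 and Abcb1a did not. Of the 15 calls, 6 held whichever array was left out (Abca3, Abcb10, Abcc1, Abce1, Slc22a18 and Slc22a23). Without R132C uncoated culture 2, 7 of 15 held, and Slco3a1 gave 0.27 (adjusted p = 0.248). Without R132C collagen culture 1, 9 held.

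Vector and R132C cells shared 12 calls, all in the same direction, which is 50% of the vector calls and 80% of the R132C calls. The same overlap was not computed over all genes, so these shares show nothing particular to transporters. These were Abca1, Abca3, Abcb10, Abcc1, Abcc3, Abce1, Abcf2, Abcg5, Slc22a18, Slc22a23, Slc22a5 and Slco2a1. The 18 genes that rose in vector cells, by 0.42 to 2.56, changed by -0.01 to 1.29 in R132C cells, and the 6 that fell, by 0.34 to 0.87, changed by -0.87 to -0.28.

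**Figure D4:**
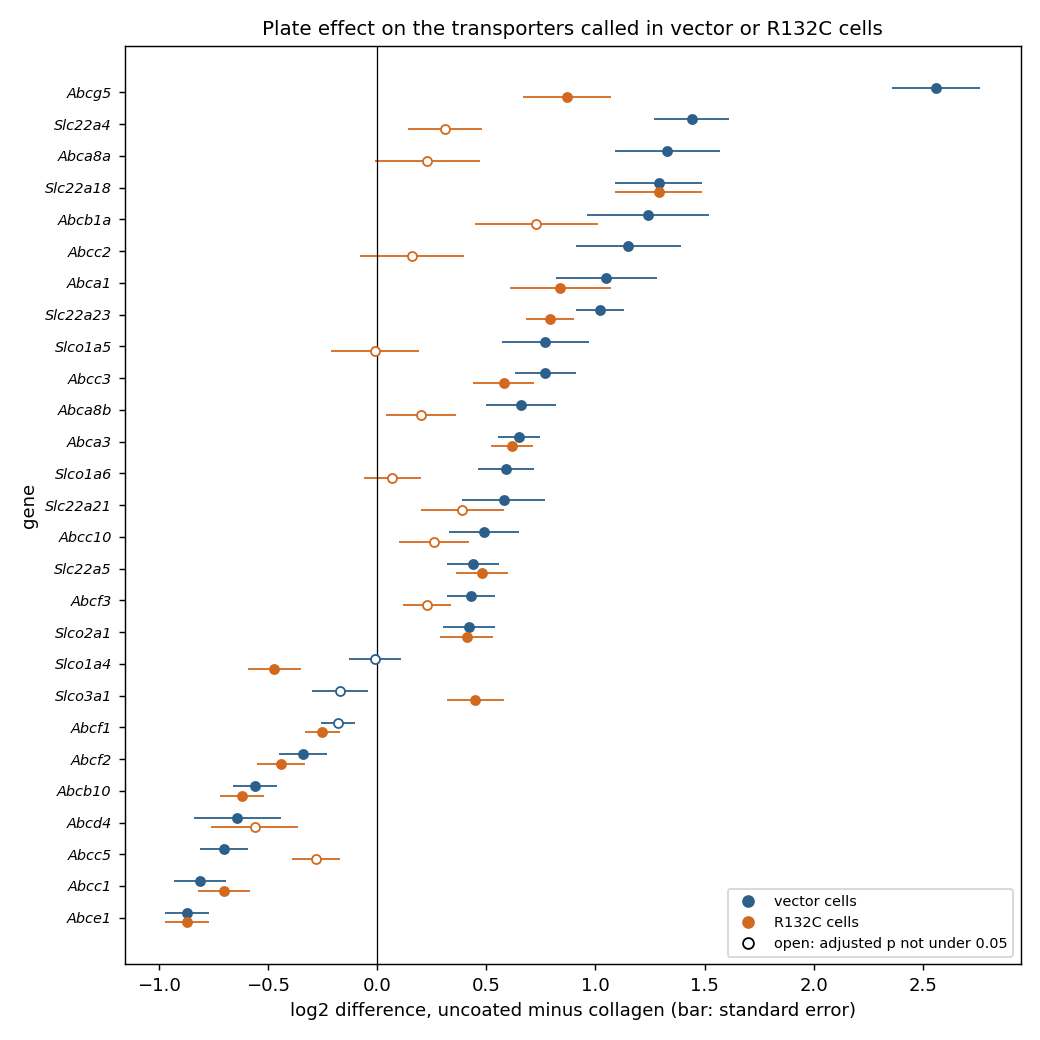
Log2 difference between uncoated and collagen plates (horizontal axis, bars are the standard error) for the 27 transporters called in vector cells, R132C cells or both (rows); filled points passed an adjusted p of 0.05. Abcg5 is 2.56 in vector cells and 0.87 in R132C cells, while Slc22a18 is 1.29 in both.

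The difference between the 2 plate effects, a contrast of the 8 arrays of 4 groups, was tested directly in the model fitted to all 14 arrays. Of the 69 transporters 1 passed, against 0.25% of all genes, with 0% of all genes positive and 0.25% negative. The plate effect on Abcg5 was smaller in R132C cells, with a difference of -1.69 ± 0.28 (R132C minus vector, limma adjusted p = 0.0229). In 3 of the 4 groups Abcg5 was near background, so this size is uncertain, and on log2(value + 32) it was -1.04 (adjusted p = 0.0274). The call was lost when vector collagen culture 1 or 2, R132C collagen culture 1 or 2 or R132C uncoated culture 1 was left out, with values of -1.59, -1.79, -1.67, -1.70 and -1.59 and adjusted p of 0.114, 0.0601, 0.135, 0.112 and 0.119. It was also lost when only the 8 arrays entered the fit (-1.69, adjusted p = 0.112). A further 8 transporters had an unadjusted p under 0.05, which 5.6% of all genes reached, and did not pass (Abca8a, Abcc2, Abcc5, Slc22a4, Slco1a4, Slco1a5, Slco1a6 and Slco3a1). The differences of Slc22a4, Abca8a and Abcc2 were -1.13 ± 0.25, -1.10 ± 0.34 and -0.99 ± 0.34, with limma adjusted p of 0.117, 0.44 and 0.557. That 12 genes were called in vector cells and not in R132C cells therefore does not show that their responses differed.

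Markers of intestinal epithelium were also compared between the plates. Of 6 measured, 4 rose in vector cells (Vil1 2.08, Cdx2 1.73, Fabp2 1.33 and Tff3 0.40) and Vil1 rose in R132C cells (2.36), while Cdx1 and Lct were near background in all 7 groups. These are 66.7% and 16.7% of the list, against 15.1% and 13.6% of all genes that rose, so the R132C share was near that of all genes. The summed intensity of the list was 1280 to 1310 in vector cells on collagen and 4460 to 4610 on uncoated plates, and 1020 to 1150 and 2190 to 2670 in R132C cells. Of 7 blood and macrophage markers Ptprc rose (1.73 and 1.19), which is 14.3% of that list in each and near the shares of all genes that rose. On uncoated plates 2 of the 6 intestinal markers, Fabp2 and Cdx2, were lower in R132C than in vector cells, and 0 were higher. These are 33.3% of the list, against 1.49% of all genes that fell. The part of either list in the transporter results, Abcg5 included, was not tested. Of the 7 markers of mature hepatocytes, 0 rose and 0 fell in vector cells (median change 0.032). In R132C cells 0 of them rose and 1 fell, G6pc, which was near background (median change -0.155).

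On uncoated plates R132C cells were compared with vector cells directly, and 2 of the 69 transporters passed, against 2.39% of all genes (0.896% rose and 1.49% fell). These comparisons share the uncoated arrays with the plate comparisons. Abcg5 was lower in R132C cells, 4.57 and 4.77 against 6.87 and 6.07, and its change of -1.80 ± 0.20 (limma adjusted p = 0.000417) held whichever array was left out. The R132C mean of 4.67 was near background, so the size is uncertain, and on log2(value + 32) it was -1.08. Abcc5 was 10.11 in both R132C cultures against 9.49 and 9.42, a rise of 0.65 ± 0.11 (limma adjusted p = 0.00827). Without vector uncoated culture 1 or R132C uncoated culture 1 the Abcc5 change was 0.69 and 0.65, with adjusted p of 0.057 and 0.0871. Of its 7 probe sets 3 rose (0.65, 0.64 and 0.63) and the others gave 0.02 to 0.37, so the mean of all 7 did not pass (0.35, adjusted p = 0.0692). Abcc2, at 4.29 and 4.28 against 5.76 and 4.78, did not pass (limma adjusted p = 0.0539). Abcb1b, at 10.40 and 10.11 against 9.49 and 9.34, did not pass either (0.84 ± 0.24, limma adjusted p = 0.105). Both sets of values lay apart without overlap. Counting group means, 21 transporters were near background in vector cells on uncoated plates and 28 in R132C cells there, against 27 to 30 in the 5 collagen groups. The share of all genes near background was 22.7% to 23.4% in every group.

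On collagen the mutants were set against their wild-type forms. No transporter passed for R132C against wild-type IDH1, where limma called 0.0484% of all genes, all rising and 0% falling. An unadjusted p under 0.05 was reached by 7.52% of all genes and by 2 transporters, Abcc5 (0.33 ± 0.11) and Abce1 (0.23 ± 0.10). The 69 changes ran from -0.37 to 0.43. For R172K against wild-type IDH2, 1 transporter passed, against 1.73% of all genes (0.597% rose and 1.14% fell), and 15 had an unadjusted p under 0.05, as had 16.9% of all genes. That gene was Slc22a4, at 4.79 and 5.05 in R172K cells and 4.29 and 3.96 with wild-type IDH2, a rise of 0.79 ± 0.17 (limma adjusted p = 0.0419). Abcc1 did not pass (0.32), but with single probe sets tested its second one rose by 0.72 and passed. The count of 1 transporter turned on single arrays. Without R172K culture 2 it was 14, when limma called 18.8% of all genes. The Slc22a4 call was lost without R132C culture 1 or 2 on collagen, IDH2 wild-type culture 1 or 2, R172K culture 1 or vector uncoated culture 1 or 2. Its values then were 0.79, 0.79, 0.96, 0.63, 0.92, 0.79 and 0.79, with adjusted p from 0.0563 to 0.327, and with array weights it was 0.328.

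Over both mutants against both wild types, 2 transporters passed, against 3.61% of all genes (1.18% rose and 2.44% fell), and 10 had an unadjusted p under 0.05, as had 17.3% of all genes. Slc22a4 was 4.42 and 4.46 with R132C, 4.79 and 5.05 with R172K, 4.24 and 3.92 with wild-type IDH1 and 4.29 and 3.96 with wild-type IDH2, a rise of 0.58 ± 0.12 (limma adjusted p = 0.0236). Abcc5 was 10.52 and 10.25 with R132C, 10.62 and 10.40 with R172K, 10.15 and 9.98 with wild-type IDH1 and 10.15 and 10.04 with wild-type IDH2, a rise of 0.37 ± 0.078 (limma adjusted p = 0.022). Slc22a4 was near background in all of these groups but R172K, and on log2(value + 32) its rises were 0.33 in R172K cells and 0.23 over both mutants, both still called. All 4 mutant arrays lay above all 4 wild-type arrays for both genes. Without IDH1 wild-type culture 2, IDH2 wild-type culture 2 or R132C culture 1 neither passed: Slc22a4 gave 0.50, 0.50 and 0.59 (adjusted p = 0.103, 0.118 and 0.093) and Abcc5 gave 0.33, 0.34 and 0.30 (adjusted p = 0.0967, 0.108 and 0.115). Slc22a4 was also lost without R132C culture 2 (0.57, adjusted p = 0.091). Abcc5 was also lost without IDH2 wild-type culture 1 (0.40, adjusted p = 0.052) or R172K culture 1 (0.32, adjusted p = 0.0626). Without R172K culture 2, 7 transporters passed and so did 14.5% of all genes. In a test added after the data were seen, the mutants' effects on Slc22a4 differed by 0.43 ± 0.25 (R172K minus R132C), which did not pass (limma adjusted p = 0.839, with 0% of all genes called and 6 transporters at an unadjusted p under 0.05).

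**Figure D5:**
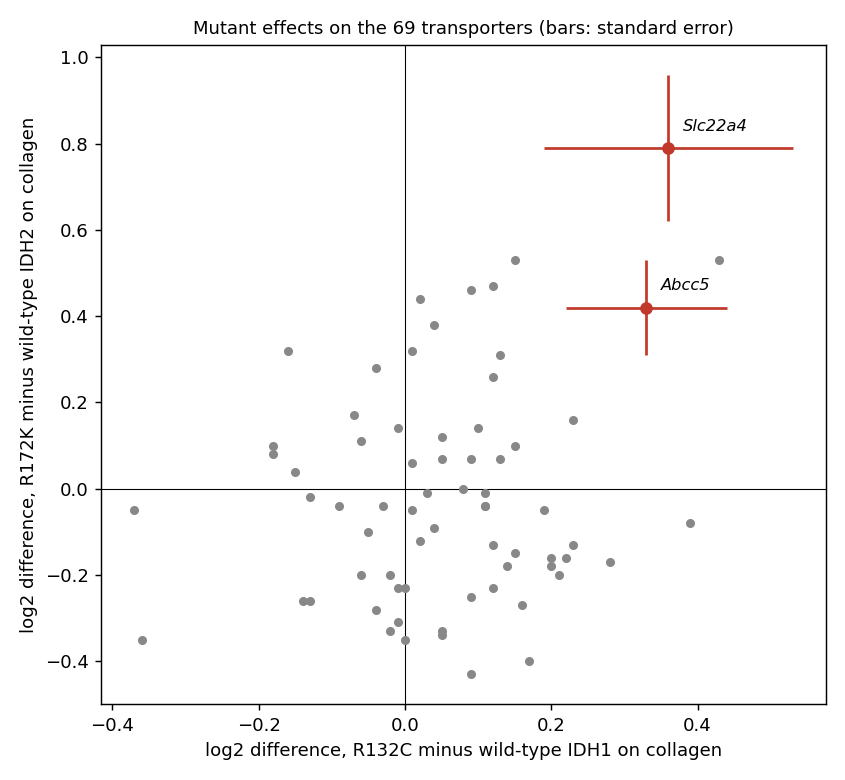
Log2 difference on collagen between R132C and wild-type IDH1 (horizontal axis) and between R172K and wild-type IDH2 (vertical axis) for the 69 transporters, with standard errors for those called in the R172K comparison or over both mutants. Slc22a4 lies at 0.36 and 0.79 and Abcc5 at 0.33 and 0.42.

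The remaining liver transporters did not pass in any of the 3 comparisons of mutants with wild types. Abcg5 was 3.87 and 3.77 with wild-type IDH1, 3.93 and 3.97 with wild-type IDH2 and 3.61 and 3.89 with R172K, so no IDH form brought it above background on collagen. Abcc2 was 4.08 and 3.99 with wild-type IDH1, 4.10 and 4.21 with wild-type IDH2 and 4.85 and 4.39 with R172K, both R172K arrays above the other collagen arrays. Abcb11 was 5.11 and 4.89 with wild-type IDH1, 5.05 and 4.97 with wild-type IDH2 and 5.44 and 5.21 with R172K. Abcb1a was 9.28 and 8.60, 9.10 and 8.33, and 8.87 and 8.85 in the same order, and Abcb1b was 10.48 and 9.78, 10.38 and 9.79, and 10.03 and 10.13. For both P-glycoproteins the 2 wild-type cultures of each kind lay further apart than the group means did. Slc22a18 was 6.06 and 6.21 with wild-type IDH1, 6.08 and 6.27 with wild-type IDH2 and 6.26 and 5.99 with R172K.

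Comparisons of each IDH form with vector cells on collagen were added after the data were seen and share the vector arrays. R172K called 4 transporters, against 4.27% of all genes. Slc22a4 and its neighbour Slc22a21 rose by 1.05 and 0.76, while Slco3a1 and Slc10a3, a carrier of unknown substrate, fell by 0.53 and 0.59. Wild-type IDH1, R132C and wild-type IDH2 each called 0% of all genes by limma, so no transporter passed there, and 0, 4 and 0 transporters had an unadjusted p under 0.05.

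Genes that regulate, supply or position these transporters were counted from fixed lists in the vector and R132C plate comparisons, whose arrays differ. The shares of all genes called were 29.3% in vector cells (15.1% rose) and 25.9% in R132C cells (13.6% rose). Of 15 measured bile acid and drug sensing receptors, 4 rose and 1 fell in vector cells (33.3% called), and 2 rose in R132C cells (13.3%), neither share far above that of all genes. Nr1h4, the bile acid receptor FXR, rose by 0.76 and 0.89, and Nr1i2, the drug receptor PXR, rose by 1.28 in vector cells. Only in uncoated vector cells was the mean of Nr1i2 above background, and R132C cells had less of it on uncoated plates (-1.07 ± 0.15, limma adjusted p = 0.00282). Vdr, the vitamin D receptor, rose by 0.75 in vector cells. Hnf4a fell by 0.66 in R172K cells against wild-type IDH2 and by 0.54 over both mutants. Medians over this list were 0.138 in vector cells and 0.061 in R132C cells, against -0.02 and -0.028 over all genes.

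Of 16 genes of bile acid synthesis and conjugation, 7 rose in vector cells (43.8%, against 15.1% of all genes) and 4 in R132C cells (25%, against 13.6%), and none fell (medians 0.226 and 0.053). Cyp27a1, the sterol hydroxylase of the acidic pathway, rose by 2.13 and 1.47, and Acox2, which shortens the bile acid side chain in peroxisomes, by 1.47 and 2.53. Of 13 other bile acid, lipid and ductal transport genes, 5 rose and 1 fell in vector cells and 4 rose and 2 fell in R132C cells, 46.2% called in each against 29.3% and 25.9% of all genes (medians 0.212 and -0.081). The water channel Aqp8 fell by 1.18 in R132C cells, from 5.25 on collagen to 4.07, near background, and was -0.12 ± 0.21 in vector cells, near background on both plates. On collagen it rose by 1.17 in R172K cells against wild-type IDH2 and by 1.09 over both mutants. The anion exchanger Slc4a2 rose by 1.17 and 1.16, and the cholesterol transfer protein Stard3 by 1.02 and 0.97. The HDL receptor Scarb1 fell by 0.59 and 0.55. Of 11 LXR and cholesterol efflux partners, 2 rose and 1 fell in each (27.3% called, near the shares of all genes of 29.3% and 25.9%), with Apoc2 rising by 2.30 and 1.61 (medians -0.041 and 0.034).

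Canalicular trafficking and scaffold genes gave 3 of 18 that rose and 2 that fell in vector cells, and 3 and 1 in R132C cells. These shares of 27.8% and 22.2% were near those of all genes, 29.3% and 25.9% (medians 0.025 and 0.082). The tight junction protein occludin (Ocln) rose by 2.93 and 2.38, and radixin (Rdx), which ties Abcc2 to the canalicular cytoskeleton, fell by 1.05 and 1.00. Of 15 glutathione and NRF2 target genes, 6 rose and 4 fell in vector cells and 5 rose and 4 fell in R132C cells, 66.7% and 60% called against 29.3% and 25.9% of all genes (medians 0.124 and -0.018). The glutathione transferases Gsta4 (1.71 and 1.53) and Gstm1 (1.35 and 1.11) rose, and the thioredoxin reductase Txnrd1 fell (-0.82 and -0.78). Among 11 peroxisome genes 6 and 5 rose and none fell (54.5% and 45.5%, against 15.1% and 13.6% of all genes), with catalase (Cat) at 0.82 and 1.06 (medians 0.367 and 0.235). Of 8 genes of peptide loading, which works with the ABC transporter TAP, 4 rose in vector cells and 2 in R132C cells (50% and 25%, against 15.1% and 13.6% of all genes), and tapasin (Tapbp) rose by 1.46 and 1.56 (medians 0.417 and 0.207).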

How the data were processed

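RNA of 14 hepatoblast cultures was measured on Affymetrix mouse arrays. The deposited intensity per probe set had been summarised with RMA (version not given), per the submitters' processing notes. Values of 5.84 to 26770 show a linear scale, so log2 was taken. Of 22690 probe sets, 64 were controls, 20380 carried 1 gene symbol, 691 several and 1555 none. Of the 69 transporters, 6 rest on s_at or x_at probe sets, which can bind related transcripts (Abcc2, Abce1, Abcf1, Abcg4, Slc22a27 and Slc22a29), and 1 probe set shared by Slc22a30 and Slc22a29 was left out. Abcc4, also on the liver list, was not analysed here.

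A single limma 3.58.1 model (R 4.3.3) with 7 group means and an intensity trend was fitted to all arrays and genes (7 residual degrees of freedom) and was tested on simulated data. The p-values were adjusted by the Benjamini-Hochberg method over 12393 genes. A ± is a standard error, and no filter or pseudocount was used. The series text calls the replicates cultures, and having 2 a group limits the precision. Promoter windows came from RefSeq (GRCm38.p6).

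Members, gene lists and motifs were chosen with earlier results of these data known. Values on single arrays are given for transporters past an adjusted p of 0.05 with a change of at least log2 1, for a fixed list of liver transporters, and for Abcc5 and Abce1. They are not given in every comparison, and Slc10a1 and Slco1b2 have ranges only. From each partner list up to 4 of the genes with the largest change past the threshold are named. Alternatives were the mean of probe sets, single probe sets, a filter at the 30th percentile, cyclic loess, log2(value + 32), no trend, only the arrays compared, array weights, a replicate block and each array left out.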

Additional observations from a re-analysis of the deposited data

Results flagged for a closer look

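The plate effect on Abcg5 differed between vector and R132C cells by a direct test of the difference, which was -1.69 ± 0.28 on the log2 scale (R132C minus vector, limma adjusted p = 0.0229). In both, 2 of 2 uncoated cultures lay above the collagen cultures. Both collagen means and the R132C mean on uncoated plates (4.67) were near background, and on log2(value + 32) the difference was -1.04. The call was lost when any of 5 arrays was left out (adjusted p = 0.0601 to 0.135).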

How the results depend on the processing

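The 45 calls of a transporter in a comparison gave 1019 values under the alternatives: 923 kept the call, 96 lost it, 77 of those with an array left out, and 0 reversed. Among 18 liver transporter results that had not been called, 19 values under the alternatives passed, all for Abcb1a, Abcb1b or Abcg2 in a plate comparison. With each array left out the number of transporters called ranged from 14 to 26 for the plate effect in vector cells, 7 to 20 in R132C cells, 0 to 2 for the difference between plate effects, 1 to 4 for R132C against vector on uncoated plates, 0 to 0 for R132C against wild-type IDH1, 0 to 14 for R172K against wild-type IDH2 and 0 to 7 for both mutants. The difference between plate effects called 0 with the filter at the 30th percentile, which leaves Abcg5 out, 0 with only the arrays compared and 2 with the replicate block. R132C against vector on uncoated plates called 1 with the mean of probe sets, 1 with the filter and 5 with the replicate block. R172K against wild-type IDH2 called 2 with the mean of probe sets and 0 with single probe sets, counting each gene's chosen probe set. It called 0 with the filter, 0 with array weights, 0 with only the arrays compared and 2 with the replicate block. Both mutants called 1 with the mean of probe sets, 1 with the filter, 0 with array weights and 1 with only the arrays compared. The causes were not tested. The block also called Abcb1b (-0.67, adjusted p = 0.00477) in vector cells and Abcb1a (0.73, adjusted p = 0.00967) in R132C cells. The number near background in all 7 groups was 16 to 26 over the alternatives. The main model did not treat same-numbered cultures as pairs. Their deviations from the group means correlated over 0.1 in 13 of 21 pairs of groups (median r = 0.156, from -0.041 to 0.487). Only the replicate block takes such pairing into account. Counts that it moved are given above, but of the calls it added only those of Abcb1b and Abcb1a are named.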
